A study of Mus musculus with 6 samples.

Results

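The genes described here carry the signal of the extrinsic, or death receptor, route of apoptosis and its link to the mitochondrial route: the receptors Fas, Tnfrsf1a and Tnfrsf10b, the adaptor Fadd, the regulator Cflar, the initiator caspases Casp8 and Casp9, and the executioner caspase Casp6. They were taken by gene name, with every probe that bears the name, so 18 probes for 8 genes were followed out of 56605 probes for 37074 gene names on a mouse array. In all, 15 of the 18 probes were bright enough to be tested, and each of the 8 genes had at least 1 such probe.

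The arrays measured total liver RNA of nude mice, which lack a thymus and so have few mature T cells. The mice of the treated group received small extracellular vesicles (sEVs), membrane-bound particles that cells release, purified from SW620, an established human colorectal cancer cell line. Each dose of 20 µg was given by tail vein every other day, 10 times over 21 days, and the control group received sterile PBS on the same schedule. Each group held 5 mice, and 3 livers per group were hybridised, 1 liver per array. The comparison asks which liver transcripts differ after repeated exposure to tumour vesicles. The submitters name apoptosis as one of the themes altered on these same arrays, so values of apoptosis genes here are not independent evidence of it.

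Death receptors are membrane proteins of the tumour necrosis factor (TNF) receptor family whose cytoplasmic death domain binds adaptors when a ligand arrives. Fas and the TRAIL receptor encoded by Tnfrsf10b recruit FADD, which gathers caspase-8 into a complex where the caspase activates itself; FLIP, the product of Cflar, enters the same complex and limits that step. Hepatocytes are known to be sensitive to Fas, and in them caspase-8 cleaves BID, which carries the signal to mitochondria and caspase-9. Caspases are made as inactive precursors, so the amount of a caspase transcript is not a measure of caspase activity.

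The probes on which the results turn are shown by the last 30 bases of their 60-base sequences, printed 5′ to 3′ from the array files, with the hexamer AATAAA, the usual polyadenylation signal of mRNA, in capitals. They are the Tnfrsf10b, Casp9 and Cflar probes that were lower in treated livers and other probes of the same genes, together with the 2 probes named Fas that were bright enough to be tested.
Tnfrsf10b A_55_P2027836: tggcagtgtaattacatacacaaAATAAAt
Tnfrsf10b A_52_P10134: tttagatactgtgatagggatttctagaaa
Casp9 A_55_P1990970: actcttgtgttccttttataagcaatattt
Casp9 A_51_P223412: tgtctgtgttccagggaagatcaggggaca
Cflar A_52_P214612: gattaatgtaggaaagtgttcgtttcctat
Cflar A_55_P1983468: tcctttgttactagaaacaatgctgcaaaa
Cflar A_55_P2636405: cttggatctggtgattgaattggagaaact
Cflar A_52_P226929: cctgagtttgtcatgcgactgggtaaattg
Cflar A_55_P2507290: gtttcattttaaggagtcattacattaaag
Fas A_55_P2091676: cctctctatatggaaatgtataatagaaga
Fas A_55_P2745482: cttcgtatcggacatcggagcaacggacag
The hexamer was searched for in the whole of each probe, as printed and as its reverse complement. It occurred as printed in 1 of the 18 member probes, the responding Tnfrsf10b probe, where it starts at base 54 of 60, and in 9.77% of all probes on the array. Its reverse complement was in none of the 18 and in 3.85% of all probes. The match is a description of the probe's letters only.

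Between 49.9% and 54.7% of spots were well above background on each array, and no spot outside the controls was saturated. All 6 arrays shared 1 slide and 1 scan. The 3 control livers and treated liver 1 lay in the first row of the slide and treated livers 2 and 3 in the second. With slide row as a block, a change is therefore that of treated liver 1 against the controls. The limma comparison covered 19446 genes, and 3295 of them had an adjusted p under 0.05 (16.9%), 1742 being higher in treated livers (8.96%) and 1553 lower (7.99%). When arrays were scaled by their median in place of the 75th percentile, 1112 genes were higher and 1589 lower. The liver label was checked with Alb, the major plasma protein of hepatocytes, which had a normalized log2 signal of 9.49 ± 0.09 (SD, n = 3) in control and 9.64 ± 0.26 in treated livers. Neither Alb nor the housekeeping genes Actb and Gapdh passed the test, and 3 of 8 hepatocyte markers were higher and none lower. Because the samples are pieces of whole liver, fewer cells of a type and less RNA per cell cannot be told apart in any value that follows.

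Of the 8 genes, 2 fell in treated livers, Tnfrsf10b and Casp9, none rose, and 6 did not pass. That share of lower genes stands beside 7.99% of all genes tested, and with 8 genes it rests on those 2 alone. The control and treated livers did not overlap for these same 2 genes, against 40.7% of all genes. The median log2 fold change of the 8 was -0.04, and that of all genes tested was 0.03. Counted by probe, 4 of 15 fell and none rose, where 14.0% of all 28760 probes tested were called in either direction. Those 4 belonged to 3 genes, because 2 probes of Cflar fell while the brightest Cflar probe, which stands for the gene, did not.

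**Figure D1:**
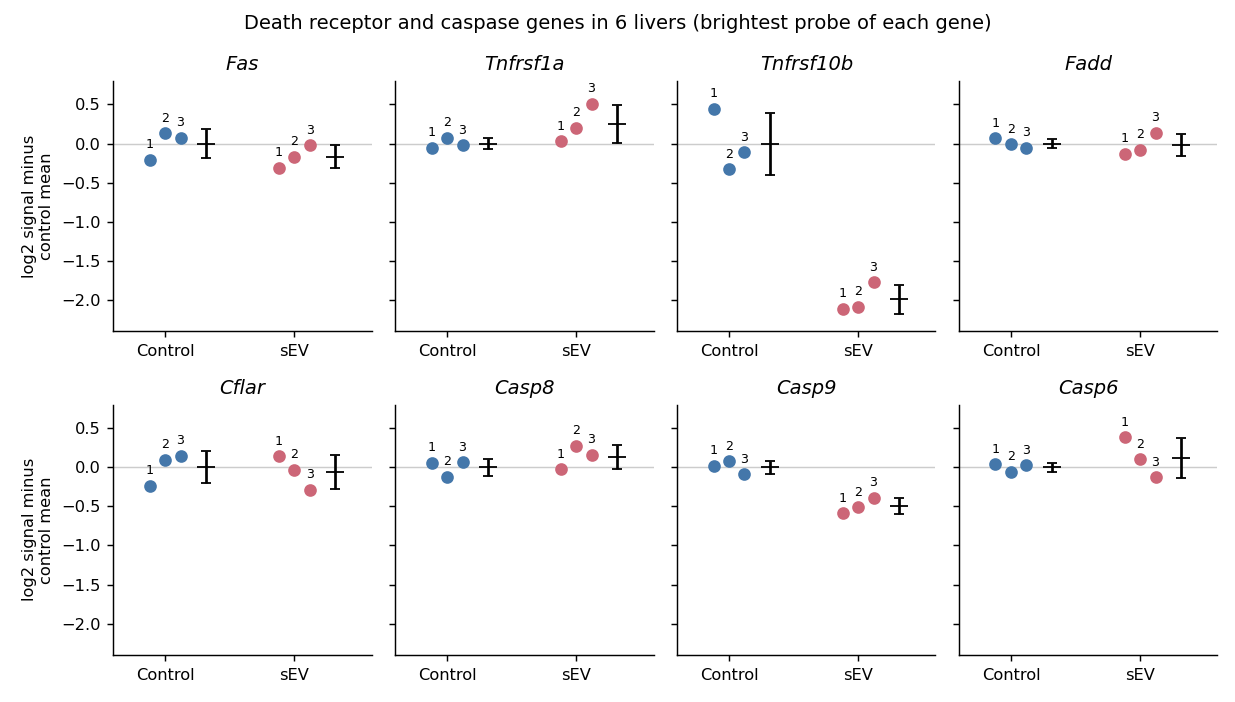
Normalized log2 signal of the brightest probe of each gene, minus that probe's control mean, in 3 control (blue) and 3 treated (red) livers; numbers name the livers, and the black mark and bar give the mean and SD. Tnfrsf10b and Casp9 are the genes whose groups do not overlap, with changes of -1.99 and -0.50.

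Among the receptors, Tnfrsf10b, the TRAIL death receptor of the mouse, showed the largest difference of the 8 genes. Its probe A_55_P2027836 (mm9, chr14:70184141-70184200) starts at base 3101 of the transcript. Normalized log2 signals, on a scale where 0 is the 75th percentile of the array, were -1.42, -2.19 and -1.97 in control livers 1 to 3 and -3.97, -3.95 and -3.63 in treated livers 1 to 3. All 3 treated livers lay below the lowest control liver by more than the whole range of the controls. The change was -1.99 ± 0.21 (SE), a 3.98-fold decrease, with a limma adjusted p of 0.00415. The probe is dim: processed signals were 187, 95.2 and 123 in controls and 26.6, 25.4 and 32.6 in treated livers, although each was well above background. With the normexp background correction, which lifts dim signals, the change was -0.83 with a limma adjusted p of 0.00481.

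The other 2 Tnfrsf10b probes were not well above background on any array. Probe A_52_P10134 starts at base 2149 of the same transcript, upstream of the responding probe, and had processed signals of 4.57 to 8.72 in controls and 3.67 to 5.30 in treated livers. Probe A_55_P2735845, designed on another cDNA of the locus, likewise stayed near background on all 6 arrays. The fall of Tnfrsf10b was therefore measured by a single probe, the more 3′ of the pair on that transcript. Whether the signal of that probe comes from the same transcript was not tested.

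Fas, the receptor for Fas ligand and a well-studied trigger of hepatocyte death, gave signals of 2.66, 2.99 and 2.94 in control livers and 2.55, 2.69 and 2.84 in treated livers on its brightest probe. The groups overlapped, and the change of -0.17 ± 0.13 did not pass (limma adjusted p 0.398), with a 95% interval from -0.48 to 0.14. Fas A_55_P2745482 was designed on a Fas mRNA that carries a retrotransposon end, and the files place it on chromosome 4 (mm9, chr4:40555124-40555183), whereas the remaining Fas probes lie on chromosome 19, so its signal may not come from the Fas gene. It read 0.20, 0.35 and -0.05 in control and -0.55, 0.09 and -0.12 in treated livers, a change of -0.36 ± 0.19 that did not pass (limma adjusted p 0.244). The third Fas probe, A_52_P73385 for transcript variant 2, stayed near background throughout, with processed signals between 3.79 and 5.32.

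Tnfrsf1a, the main TNF receptor of hepatocytes, read 3.70, 3.83 and 3.73 in control livers and 3.78, 3.95 and 4.26 in treated livers on probe A_52_P192426. Treated liver 1 lay within the control range, and treated livers 2 and 3, which shared the second slide row, lay above it. The change was 0.25 ± 0.13 and did not pass (limma adjusted p 0.255), with a 95% interval from -0.08 to 0.57. With slide row as a block it was 0.03. The second probe, A_51_P106047, placed the livers in a similar way, at 0.23, 0.35 and 0.14 in controls and 0.31, 0.81 and 1.14 in treated livers. Its change of 0.51 ± 0.21 did not pass either (limma adjusted p 0.151), and was 0.07 with slide row as a block.

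Fadd, the adaptor that links Fas and TRAIL receptors to caspase-8, had signals of -0.12, -0.19 and -0.24 in control livers and -0.31, -0.26 and -0.04 in treated livers. The treated livers lay on both sides of the controls, and the change of -0.02 ± 0.10 did not pass (limma adjusted p 0.900). Its 95% interval, -0.26 to 0.22, leaves room for changes of either sign.

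Cflar, which encodes the caspase-8 regulator FLIP, was read by 5 probes that did not report the same change. Probe A_52_P214612, designed on an Ensembl transcript (mm9, chr1:58770546-58770605), read 0.69, 0.66 and 0.76 in control and 0.02, 0.20 and 0.23 in treated livers. It fell by 0.55 ± 0.09 on the log2 scale (limma adjusted p 0.0167 over all probes), with no overlap between the groups. Probe A_55_P1983468, for transcript variant 2 (mm9, chr1:58789994-58790053), read 1.27, 1.43 and 1.34 in control and 0.66, 0.87 and 0.87 in treated livers. It fell by 0.55 ± 0.10 (limma adjusted p 0.0210), again with no overlap.

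The remaining 3 Cflar probes did not pass. The brightest, A_55_P2507290 for transcript variant 1 (mm9, chr1:58815653-58815712), read 2.68, 3.01 and 3.06 in control and 3.06, 2.88 and 2.63 in treated livers, a change of -0.06 ± 0.15 with a limma adjusted p of 0.802 and a 95% interval from -0.43 to 0.31. A_52_P226929, also for variant 1, read 0.19, 0.15 and 0.37 in control and 0.49, 0.34 and 0.27 in treated livers. Its change was 0.13 ± 0.11 (limma adjusted p 0.448). A_55_P2636405, for variant 4, was dim and spread widely among treated livers (-2.30, -3.15 and -3.11), with a change of 0.03 ± 0.24 that turned to -0.03 under median scaling and to -0.01 under quantile normalization.

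**Figure D2:**
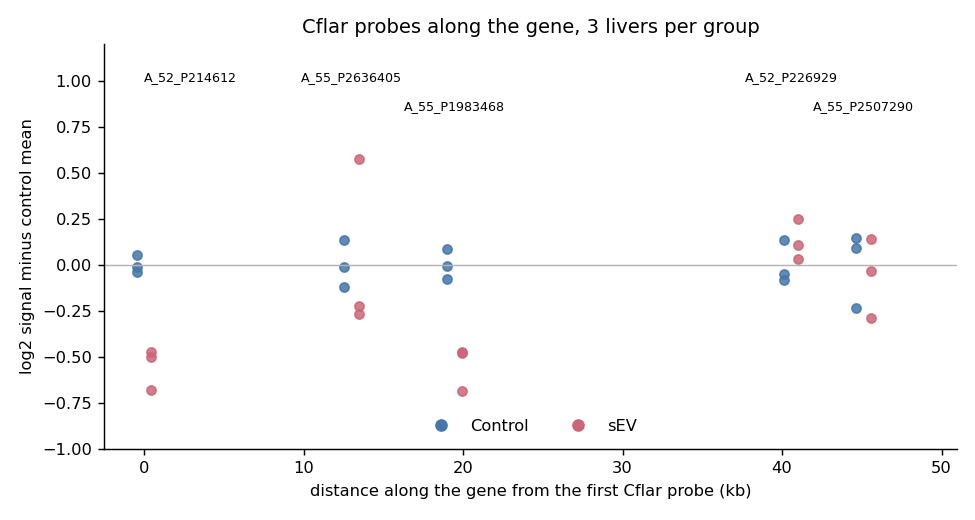
Normalized log2 signal of each Cflar probe minus its control mean, against the distance in kb from the first Cflar probe, for 3 control (blue) and 3 treated (red) livers, drawn side by side at each probe. The treated livers lie below all controls at the probes at 0 and 19.4 kb and among or near them at 13.0, 40.6 and 45.1 kb.

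The difference between Cflar probes was also taken within each array, so that the scale of the array drops out. Against the 3 probes that did not pass, the 2 that fell lost between 0.48 and 0.68 log2 units more in treated livers. This is a description without a test, because the probes were divided by their own calls. Between the pair of probes that fell, the change was -0.0053.

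Casp8, the initiator caspase of the death receptor complex, read 1.52, 1.34 and 1.53 in control livers and 1.44, 1.74 and 1.62 in treated livers. Its change of 0.14 ± 0.11 did not pass (limma adjusted p 0.435), with a 95% interval from -0.13 to 0.40, and turned to -0.03 with slide row as a block.

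Casp9, the initiator caspase of the mitochondrial route, fell on its brighter probe. A_55_P1990970 (mm9, chr4:141371773-141371832), which starts at base 3778 of the transcript, read 2.23, 2.28 and 2.12 in control livers and 1.62, 1.70 and 1.82 in treated livers. All treated livers lay below all controls, and the change was -0.50 ± 0.09 with a limma adjusted p of 0.0202, a 1.41-fold decrease. The call was lost when control liver 1, control liver 2 or treated liver 2 was left out (limma adjusted p 0.0635, 0.0634 and 0.0593) and with slide row as a block (-0.59, limma adjusted p 0.0773).

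The second Casp9 probe, A_51_P223412, starts at base 741 and crosses an intron, since its mm9 ends lie farther apart than its own length. It was dim, at -2.58, -2.79 and -2.89 in control and -3.18, -2.62 and -2.69 in treated livers, and its change of -0.07 ± 0.17 did not pass (limma adjusted p 0.802). The mean of both probes changed by -0.29 and did not pass (limma adjusted p 0.165). Within arrays the difference between the probes changed by 0.42, with an exact permutation p of 0.1, the smallest value that 3 livers against 3 can give (0.217 after Benjamini-Hochberg adjustment over the 13 probe pairs of all genes).

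Casp6, an executioner caspase that cleaves nuclear lamins, read 2.20, 2.09 and 2.18 in control livers and 2.54, 2.26 and 2.03 in treated livers. Treated liver 1 was the highest of all 6 and treated liver 3 the lowest. The change of 0.12 ± 0.14 did not pass (limma adjusted p 0.591), with a 95% interval from -0.22 to 0.45.

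**Figure D3:**
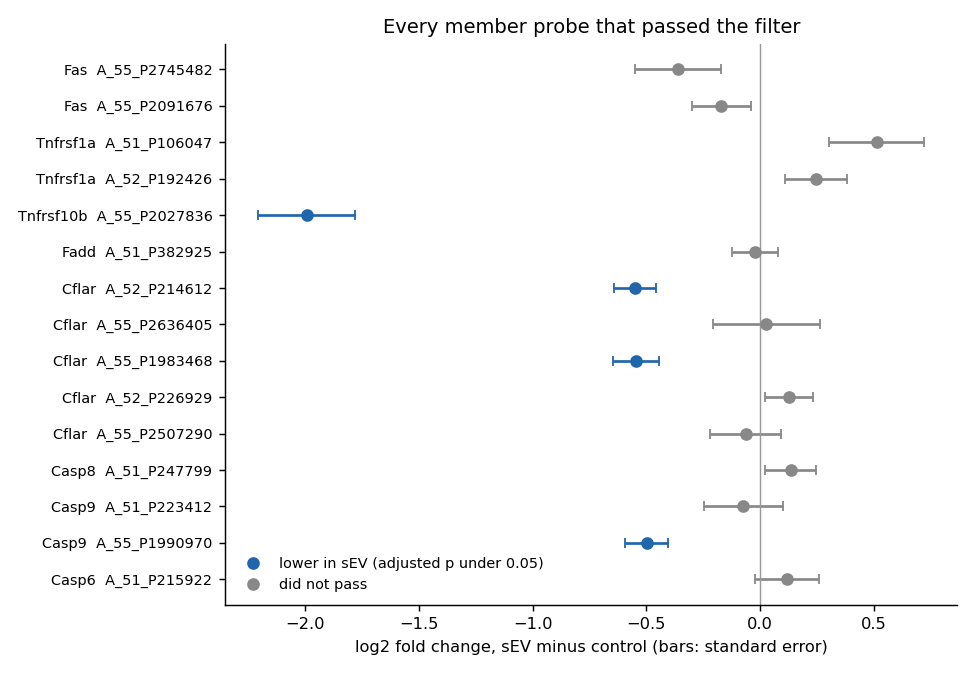
Log2 fold change, treated minus control, with its standard error, for the 15 member probes that passed the filter; blue points passed a limma adjusted p of 0.05. The 4 blue probes belong to Tnfrsf10b, Cflar (2 probes) and Casp9.

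Differences between genes were taken within each array for 6 pairs, a design of 3 livers against 3 in which no exact p can be below 0.1. Of these pairs, Casp8 relative to Casp9 changed most, by 0.63 on the log2 scale, with an exact permutation p of 0.1 (0.6 after adjustment over the 6 pairs). Cflar relative to Casp8, on the brightest probe of each, changed by -0.20 (exact permutation p 0.4, adjusted 0.6), and Fas relative to Casp8 by -0.30 (exact permutation p 0.2, adjusted 0.6). In the last 2 comparisons the control and treated livers overlapped.

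The 2 genes whose signal ran most like that of Tnfrsf10b over the 6 livers were Smtn and Hpca, with Pearson r of 0.999 and 0.998. For Casp9 they were Tmem194b and Rbm12b1, each with r of 0.995. These were the highest of 13529 named genes over 6 arrays that share a slide, and the correlation includes the difference between the groups. All 4 genes had lower signals in treated livers, with changes from -1.91 to -0.66.

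The other genes of the route were divided into 7 groups holding 80 genes, of which 73 could be tested: 11 rose, 7 fell and 55 did not pass, or 24.7% called beside 16.9% of all genes. With slide row as a block, 2 of them passed (Birc5 and Prkcd), and within the first slide row 1 passed (Birc5). Both fits take their change from treated liver 1 against the controls, because the second row holds treated livers only. The fit within the first row also assumes that this liver varies like the controls. Leaving out 1 liver at a time gave 6 to 15, the fewest without control liver 1. Among the genes named below, Birc5 passed in all 18 alternatives run and Prkcd in 17, whereas Bid and Lmna passed in 8 and Casp2 and Pycard in 7.

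Among death ligands, none of the 4 tested passed, with a median change of 0.34. Tnf, the ligand of Tnfrsf1a, changed by 0.37 ± 0.15 (limma adjusted p 0.145), and Tnfsf12, the ligand TWEAK, by 0.33 ± 0.14 (limma adjusted p 0.157). Tnfsf10, which encodes TRAIL, the ligand of Tnfrsf10b, had the single negative value, -0.30 ± 0.13 (limma adjusted p 0.175). The groups did not overlap for Tnfsf10 or for Tnfsf12, as was so for 40.7% of all genes tested. Tnfsf10 is outside the rule for named genes and was chosen after its value was seen. Fasl, the ligand of Fas, was not tested because its probes were not well above background on enough arrays, and neither were Lta and Tnfsf15. Of 9 other TNF receptor family members, 1 passed: Ngfr, a neurotrophin receptor with a death domain that also marks hepatic stellate cells, fell by 0.73 ± 0.17 (limma adjusted p 0.0338). Of 6 stellate cell markers, 2 were lower (Lrat and Col1a1) and 4 did not pass, and the summed level overlapped, between 6.02 and 6.52 in control and 5.69 and 6.17 in treated livers; their part in the result was not tested.

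Of 25 adaptors and their regulators, the largest group, 6 rose and 2 fell, where 8.96% of all genes were higher and 7.99% lower; the median change was 0.19, against 0.03 over all genes. Rnf31, the catalytic subunit of the linear ubiquitin ligase that acts on TNF receptor complexes, rose by 0.57 ± 0.08 (limma adjusted p 0.0103). Ripk1, the kinase that those complexes recruit, rose by 0.59 ± 0.11 on its brightest probe (limma adjusted p 0.0193), while its other 2 probes gave 0.30 and 0.52 and did not pass. Traf1, a TNF receptor-associated factor, rose by 0.60 ± 0.10 (limma adjusted p 0.0149), and Faim2, an inhibitor of Fas signalling known mainly from neurons, by 0.80 ± 0.14 (limma adjusted p 0.0153). Traf5 fell by 0.52 ± 0.11 (limma adjusted p 0.0258), and both of its probes passed. Tnfaip3 (0.42), Bag4 (0.29) and Pea15a (-0.45) also passed; they are named here to complete the count and were chosen after their values were seen.

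**Figure D4:**
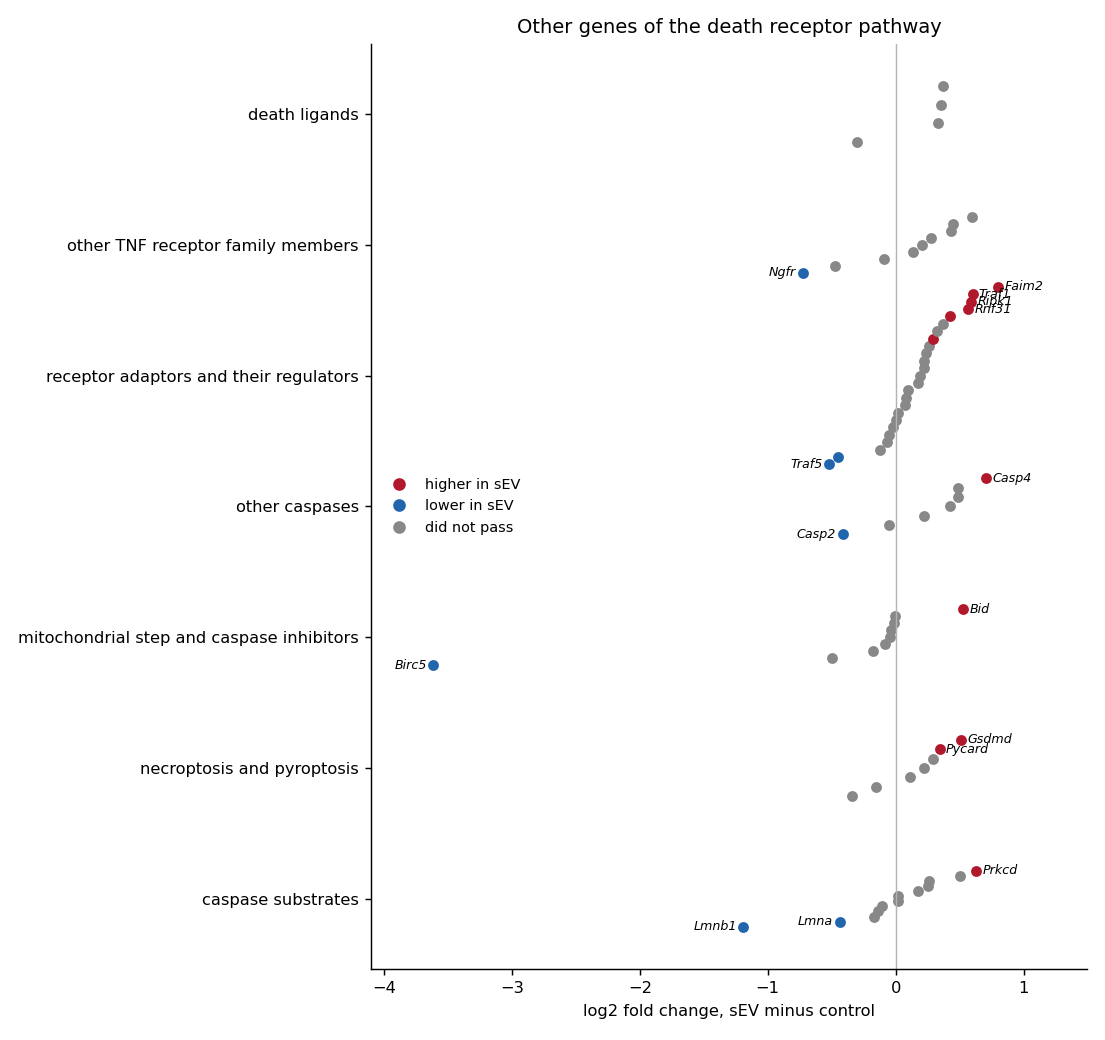
Log2 fold change, treated minus control, of the 73 tested genes in the 7 groups of the route, 1 point per gene; red points rose and blue points fell at a limma adjusted p of 0.05. Birc5, at -3.61, lies far outside the range of the others.

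Of 7 other caspases, Casp4, the inflammatory caspase that senses intracellular endotoxin, rose by 0.70 ± 0.13 (limma adjusted p 0.0209). Casp2 fell by 0.41 ± 0.09 on its brightest probe (limma adjusted p 0.0274), and its other probe gave -0.23 and did not pass. The remaining 5 did not pass. In the necroptosis and pyroptosis group, Gsdmd, the pore-forming target of inflammatory caspases, rose by 0.51 ± 0.08 (limma adjusted p 0.0143) on its brightest probe and by 0.51 on the other. Pycard, the inflammasome adaptor ASC, rose by 0.34 ± 0.09 (limma adjusted p 0.0489) and lost the call when adjusted over all probes (0.0583).

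Markers of myeloid cells did not all go one way: 6 of 9 neutrophil markers and 5 of 8 Kupffer cell markers were higher in treated livers, whereas of 6 monocyte markers 1 was higher and 3 were lower. The summed neutrophil level was 4.90 to 5.73 in control and 6.38 to 7.14 in treated livers, and the summed Kupffer cell level was 5.91 to 6.35 and 6.50 to 6.67. The summed monocyte level was 6.74 to 6.88 in both groups. That sum adds unlogged signals, so bright genes weigh most. Of the 3 brightest, Ly6c2 fell (-0.56), and Csf1r (0.31) and Lyz2 (0.37) did not pass. The dimmer Cx3cr1 (-2.17) and Itgam (-0.79) fell and Ccr2 rose (0.52). The neutrophil marker Ly6g did not pass, at -0.07. The part of these cells in the rises of Casp4, Gsdmd and Pycard was not tested.

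At the mitochondrial step, Bid, the caspase-8 substrate that carries the signal to mitochondria, rose by 0.53 ± 0.13 (limma adjusted p 0.0360), and Birc5, or survivin, an inhibitor of apoptosis family member needed for cell division, fell by 3.61 ± 0.13 (limma adjusted p 0.000136). Birc5 passed on both of its probes, and the second fell by 4.35 on the log2 scale. The other 7 of the 9 did not pass. Among them were the caspase-9 partner Apaf1, at -0.49 ± 0.14 (limma adjusted p 0.0589), and the inhibitor Xiap, at -0.08 ± 0.07 (limma adjusted p 0.487). Among 12 caspase substrates, Prkcd rose by 0.63 ± 0.08 (limma adjusted p 0.00713), and the lamins fell, Lmnb1 by 1.19 ± 0.19 (limma adjusted p 0.0139) and Lmna by 0.44 ± 0.10 (limma adjusted p 0.0321). The other 2 Prkcd probes gave 0.75, which passed, and 0.49, which did not (limma adjusted p 0.0560 over all probes). The other 2 Lmna probes gave -0.32 and -0.03 and did not pass.

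Some markers of B cells and of erythroid cells were also lower in the livers in which Tnfrsf10b and Birc5 fell. So were some monocyte and stellate cell markers, as given above, and 1 of 6 endothelial markers. Of the B cell markers 3 of 4 tested were lower and Pax5 did not pass (0.33), with summed levels of -0.26 to 0.10 in control and -1.34 to -0.66 in treated livers. Of the erythroid markers 3 of 6 tested were lower, with changes of -0.50 (Klf1), -3.59 (Ahsp) and -1.79 (Slc4a1). The other 3 did not pass, and none of the 6 had a positive change. Summed levels of 9.20 to 9.33 in control and 7.66 to 9.36 in treated livers overlapped. That sum adds unlogged signals and is mostly the globin gene Hba-a1, which had a mean of 9.20 in control livers and did not pass. The defining markers Cd79a and Epb42 were too dim to be tested. The part of these cells in the fall of either gene was not tested.

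The dependence of the lower signals on processing differed among the genes. Tnfrsf10b passed in all 18 alternatives run, the fit within the first slide row included, with changes from -2.16 to -0.83 and a highest limma adjusted p of 0.0463. Within the first slide row, where the 3 control livers stand against treated liver 1, its change was -2.12, with a limma adjusted p of 0.0463 over genes and 0.0531 over probes. That fit takes its spread from the controls and assumes that the lone treated liver varies like them. With slide row as a block, the change comes from these same livers. Averaging the tested probes of a gene left Tnfrsf10b as it was, because it has a single tested probe. Casp9 kept its direction in all 18 and passed in 10. Adjusted over all probes, its probe A_55_P1990970 passed in 6 of the 15 alternatives that apply to single probes. The Cflar probes A_52_P214612 and A_55_P1983468 kept their direction in all 15 alternatives that apply to single probes and passed in 11 and 8 of them. A_52_P214612 lost its call without control liver 1 or 3 (limma adjusted p 0.0547 and 0.0599). A_55_P1983468 lost it without any 1 of the control livers or without treated liver 3, with limma adjusted p between 0.0522 and 0.0654.

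**Figure D5:**
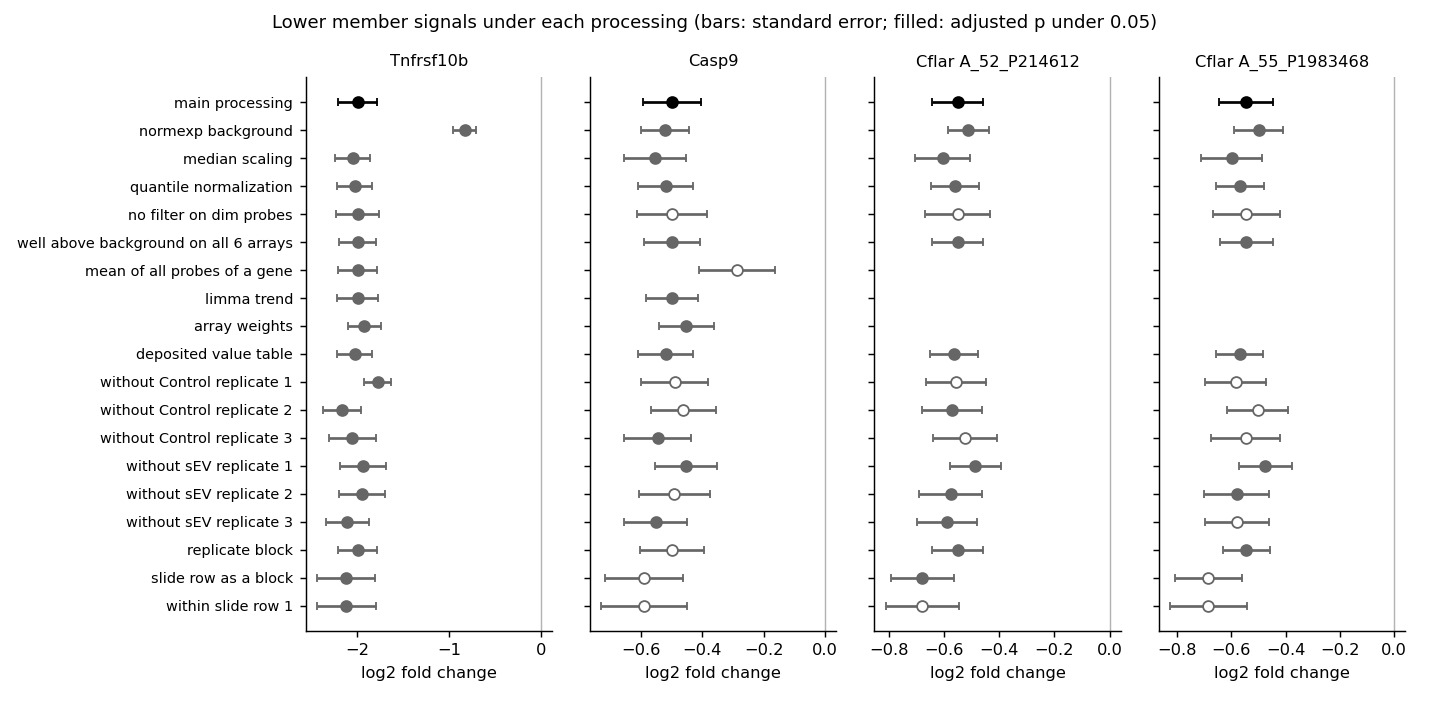
Log2 fold change, treated minus control, with its standard error, of Tnfrsf10b, Casp9 and the 2 lower Cflar probes under the main processing (black) and each alternative (grey); filled points passed a limma adjusted p of 0.05. All points lie below 0, and the normexp value of Tnfrsf10b, -0.83, stands apart from its others.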

How the data were processed

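Per the labels' protocols, cyanine-3 cRNA of each liver was hybridised to a 1-colour Agilent array; the submitters' processing notes name Agilent Feature Extraction 10.7.1.1, and per the file headers probe coordinates are on mm9. The authors deposited scanner files with processed signal intensity per spot and a table of log2 values, used as an alternative. Processed intensities were taken to log2 here and each array's 75th percentile was subtracted, without control or flagged spots. A probe was kept if 3 or more of the 6 arrays showed it well above background, and the brightest stood for its gene. The limma package (version 3.58.1, R 4.3.3) tested treated against control livers with Benjamini-Hochberg adjustment at 0.05, and the fit was checked on simulated data. The number of arrays limits the precision. The members and gene groups were chosen with earlier results of these data known. Named genes were all members, up to 5 called genes of each group by moderated t (otherwise the top 2), Alb, Actb and Gapdh, and the 2 genes most like each called member. Replicate numbers did not pair livers, with deviations correlating at 0.02, 0.16 and 0.02. Of the 18 probes, 15 matched a RefSeq transcript by accession, all 15 under the same symbol.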

Additional observations from a re-analysis of the deposited data

How the results depend on the processing

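Of 3295 genes, 4040 probes and 2 member genes called, no filter on dim probes left 791, 950 and 1, the replicate block 2155, 2534 and 1, slide row as a block 722, 836 and 1, and the first slide row alone 607, 703 and 1; the member left in each was Tnfrsf10b. Both slide row fits take their change from treated liver 1 against the controls. Averaging the tested probes of a gene left 1 member, Tnfrsf10b, whose value could not change because it has a single tested probe. Leaving out 1 liver gave 1318 to 2823 genes, 1502 to 3229 probes and 1 to 2 members. The pathway count of 18 became 2 without the filter, 2 with slide row as a block, 1 within the first row and 6 to 15 without 1 liver; these recomputations of the pathway genes were chosen after seeing the data. The replicate block, tried although the numbers do not pair livers, took the call from Casp9 (limma adjusted p 0.0558).

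Changes of sign occurred only among member values that did not pass, on the log2 scale: Fadd 0.014 with array weights and -0.10 to 0.031 without 1 liver; Cflar, brightest probe, 0.14 with slide row as a block and within the first row and -0.18 to 0.051 without 1 liver; Casp8 -0.026 with slide row as a block and within the first row; Casp6 -0.015 to 0.24 without 1 liver; Casp9 A_51_P223412 0.071 with normexp and -0.18 to 0.10 without 1 liver; and Cflar A_55_P2636405 -0.027 with median scaling and -0.013 both with quantile normalization and with the deposited value table, and -0.25 to 0.17 without 1 liver. The cause was not tested. Low signal over background limits Tnfrsf10b, Casp9 A_51_P223412 and Cflar A_55_P2636405.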
